A study of Mus musculus with 12 samples.

Results

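Molecular chaperones and the cold-inducible RNA-binding proteins were followed through the circadian day in the olfactory epithelium of the mouse. The genes were chosen by symbol alone: the Hspa, Hspb, Hspd, Hspe and Hsph families, the HSP-binding proteins that share these letters, the J-domain families Dnaja, Dnajb and Dnajc, the chaperonin subunits Cct2 to Cct8, the co-chaperones Bag1 to Bag6, the heat shock factor Hsf1, and Cirbp and Rbm3. A gene counted as measured where a probe carried its symbol and no other, and a gene with several such probes was read from the brightest. By this rule 87 genes were measured, of 19937 in all, against 89 protein-coding genes with such symbols in the RefSeq table. Hsf1 and Hspa1b are not named here, because no probe carries either symbol alone. The symbols also leave out the HSP90 genes, which are described further on as a separate list.

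The tissue came from male C57BL/6 mice that had been entrained to light and dark and then kept in constant darkness. RNA of 4 mice was pooled in equal amounts at each of 12 times, every 4 h from CT12 to CT56, and each pool of the 48 mice was read on 1 Affymetrix array. CT, circadian time, counts hours of the animal's own day. The subjective night, when mice are active, holds the pools CT12, CT16, CT20, CT36, CT40 and CT44, and the subjective day, when they rest, CT24, CT28, CT32, CT48, CT52 and CT56. All mice carried the same strain background and no treatment, and their age is not given in the labels. The second cycle is the 6 pools from CT36 on, and the first cycle the 6 pools before them.

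Chaperones bind unfolded protein and help it to fold. HSP70 proteins do this in rounds of ATP binding and release, J-domain proteins bring the substrate and start the ATP cycle, HSP110 and BAG proteins exchange the nucleotide, small HSPs hold unfolded chains, and chaperonins enclose them. Heat shock factor 1 raises the transcription of many of these genes when protein unfolds. Cirbp and Rbm3 bind RNA, and their transcripts rise with mild cooling. Body temperature of a mouse is higher in the active night than in the resting day, and in other tissues and in cultured cells such cycles of temperature are known to drive heat shock genes one way and Cirbp the other. Body temperature was not measured in these data.

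Some of the promoters carry sequence elements named for heat shock, mild cold or stress of the endoplasmic reticulum. Those stretches are shown here because the values below are read against them. RefSeq promoters of the GRCm38.p6 build were matched for 72 of the 87 genes, and the 250 bases before the annotated start were searched on both strands. Capitals mark the match. Hspd1 and Hspe1, the mitochondrial chaperonin and its lid, lie head to head and share 1 stretch, chr1:55088044-55088091, read on the minus strand for Hspd1 and on the plus strand for Hspe1. It holds a heat shock element of alternating GAA and TTC units. Dnajb6, a J-domain protein that suppresses aggregation, has such an element at chr5:29735837-29735879 on the plus strand. Hspa5, the HSP70 protein BiP of the endoplasmic reticulum, and Dnajc3, a J-domain partner of it, have the endoplasmic reticulum stress element at chr2:34772010-34772058 and chr14:118937812-118937860, both on the plus strand. Cirbp has the letters of the mild-cold response element at chr10:80167589-80167614 on the plus strand. They begin 247 bases before the annotated start, at the edge of the stretch searched. The same letters lie before other members, among them the heat-inducible Hspa1a, Dnaja1 and Bag3, so they do not set Cirbp apart.
Hspd1: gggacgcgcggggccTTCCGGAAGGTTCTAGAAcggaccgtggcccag
Hspe1: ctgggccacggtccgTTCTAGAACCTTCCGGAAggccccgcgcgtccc
Dnajb6: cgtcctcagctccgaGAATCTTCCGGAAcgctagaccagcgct
Hspa5: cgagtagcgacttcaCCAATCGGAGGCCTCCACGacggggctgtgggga
Dnajc3: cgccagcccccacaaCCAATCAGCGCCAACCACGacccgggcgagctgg
Cirbp: ctgTCCCCGCCtcctagtcgctagcg

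The heat shock element was searched as GAANNTTCNNGAA or TTCNNGAANNTTC, and was present in 3 of the 72 promoters, 4.17%, against 0.514% of 27025 genes in the table. The shorter GAANNTTC or TTCNNGAA, which each longer match contains, was present in 16, 22.2%, against 14.5% of all genes. The stress element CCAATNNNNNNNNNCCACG was present in 2, 2.78%, against 0.13%. TCCCCGCC was present in 11, 15.3%, against 5.37%, and the E-box CACGTG, bound by the clock's activators, in 6, 8.33%, against 6.86%. Hspd1 and Hspe1 share 1 stretch, which is counted for both genes in the longer and in the shorter heat shock search. A match describes letters and not the binding of a factor.

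In this tissue the genes were bright. Their mean level had a median of 9.0 on the log2 scale, against 8.18 over all genes, and 66 of the 87 lay above that median of all genes. The brightest were Hspa8, the HSP70 protein made without stress, at 12.99, then Rbm3 at 12.09, Hspa5 at 11.59, and Cct2 and Dnajb9 at 11.21. The dimmest were Dnajb7 at 5.15 and Dnajc5g at 5.73. Probes differ in how strongly they bind, so these levels do not rank the amounts of RNA. The tissue label was borne out by its markers, since Omp of mature sensory neurons averaged 12.89 and Cyp2g1 of sustentacular cells 13.70.

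Neither cold-inducible gene passed the test for a daily rhythm. Cirbp read 10.50, 10.44, 10.63, 10.57, 10.60 and 10.89 at CT12 to CT32, and 10.38, 10.48, 10.45, 10.68, 10.36 and 10.36 at CT36 to CT56. The single high pool was CT32, and its counterpart 24 h later, CT56, shared the lowest value. Cirbp ran from 10.38 through a median of 10.46 to 10.63 in night pools, against 10.36, 10.59 and 10.89 in day pools, so the groups overlapped. The night pools averaged 10.48 ± 0.09 and the day pools 10.58 ± 0.20 (SD, n = 6 each), a difference of -0.10 ± 0.08 (SE; limma, adjusted p = 0.602) with a 95% interval of -0.28 to 0.08. The 24 h cosine had an amplitude, from mean to peak, of 0.06 ± 0.06 with a fitted peak at CT 2.0 (limma, adjusted p = 0.996), and its upper 95% limit was 0.19.

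Rbm3 was among the steadiest of the genes, with an SD of 0.07 over 12 pools. It read 12.13, 12.06, 12.10, 12.21, 12.00 and 12.04 at CT12 to CT32, and 12.04, 12.13, 12.13, 12.20, 12.06 and 12.02 at CT36 to CT56. CT24 and CT48, the pools at the start of the subjective day, were its 2 highest. Night pools ran from 12.04 through 12.11 to 12.13, against 12.00, 12.05 and 12.21 in day pools, and the difference was 0.01 ± 0.05 (limma, adjusted p = 0.939; 95% interval -0.11 to 0.13). Its amplitude was 0.06 ± 0.04 peaking at CT 21.0 (limma, adjusted p = 0.996) and an upper limit of 0.14. A second, dimmer Rbm3 probe gave 0.09 ± 0.06 and a peak at CT 22.3.

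**Figure D1:**
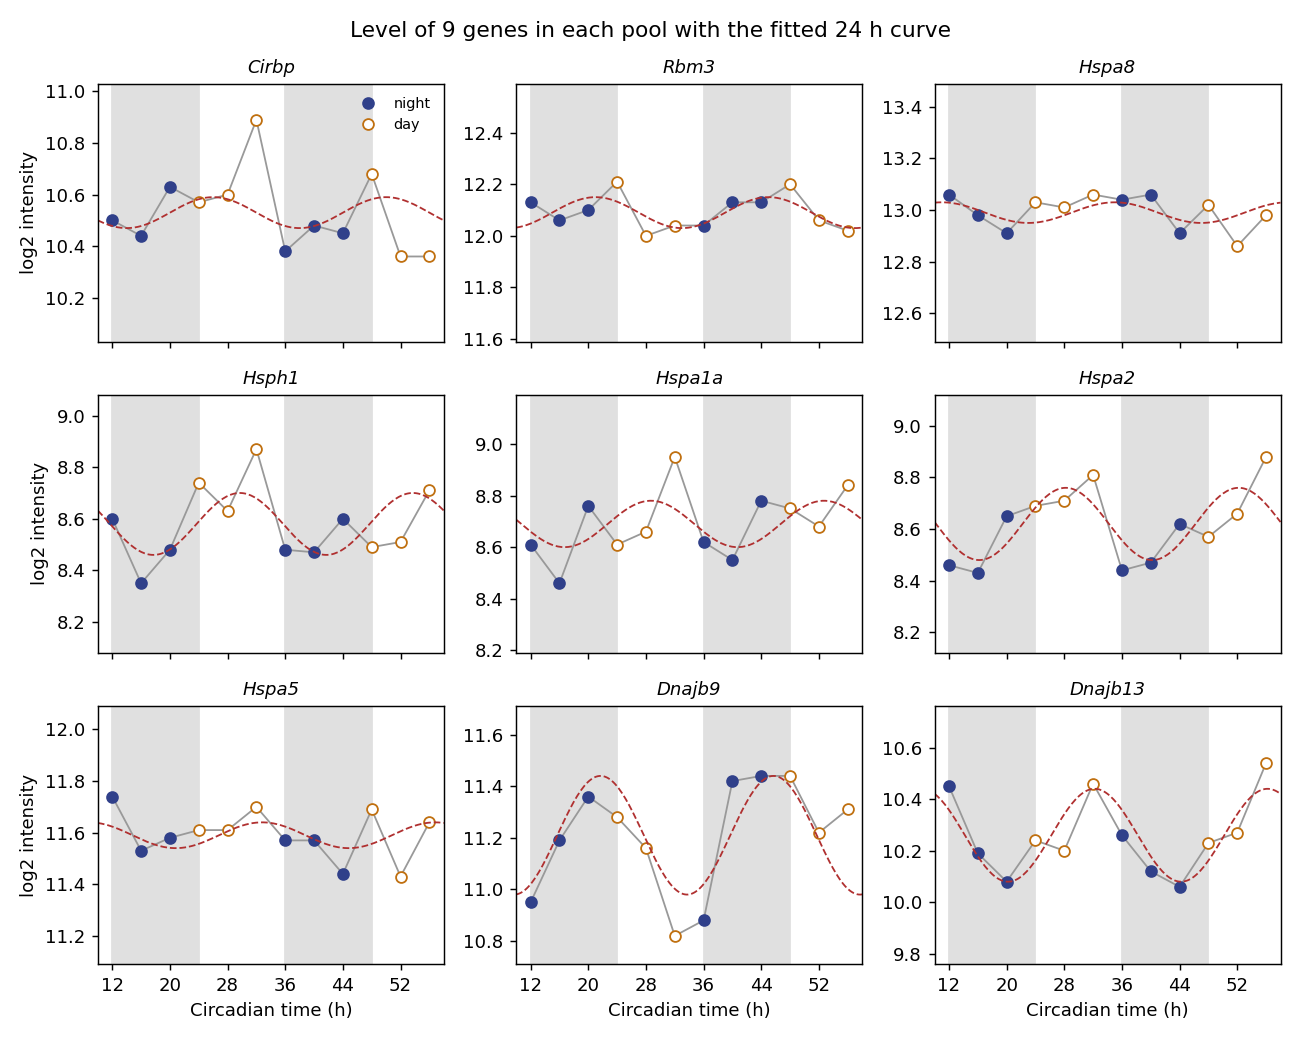
Level (log2 intensity, vertical axis, each panel 1 unit high) against circadian time (h) for 9 genes in each of the 12 pools, with night pools filled, day pools open, the subjective night shaded and the fitted 24 h curve dashed. Cirbp stands high in the single pool CT32, Rbm3 and Hspa8 are nearly flat with an SD of 0.07 each, and Dnajb9 and Dnajb13 follow their curves most closely.

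No chaperone passed the 24 h test. After adjustment 0 of 87 were called, against 0.0251% of all genes, and the smallest adjusted p among them was 0.857 (limma). At an unadjusted p under 0.05 there were 4, against 3.54% of all genes, a share of 4.60%, which is near the background; the count was 2 without CT40 (2.47% of all genes) and 9 without CT52 (6.12%). The median amplitude was 0.07, against 0.06 over all genes, and the range 0.01 to 0.30. For 86 of the 87 the upper 95% limit of the amplitude was under 0.5, and for Hspb11 it was 0.55. Of 7 clock genes the same fit called 3, Dbp, Nr1d1 and Arntl, with amplitudes of 0.51, 0.42 and 0.35. It did not call Ciart, at 0.51, Per3, at 0.24, or Per1 and Per2, at 0.15 and 0.12 (limma, adjusted p = 0.104, 0.518, 0.996 and 0.996).

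The member with the smallest p in the 24 h fit was Dnajb13, which belongs to the radial spokes of motile cilia rather than to the folding machinery. It read 10.45, 10.19, 10.08, 10.24, 10.20 and 10.46 at CT12 to CT32, and 10.26, 10.12, 10.06, 10.23, 10.27 and 10.54 at CT36 to CT56. It was highest at CT32 and CT56 and lowest at CT20 and CT44, in both cycles. The amplitude was 0.18 ± 0.04 peaking at CT 8.2 and a fitted peak 1.28-fold above the trough (limma, adjusted p = 0.857). All 9 measured markers of respiratory motile cilia read lower at night, with a median difference of -0.18. Their mean level ran from 8.74 through 8.83 to 8.98 in night pools, against 8.87, 9.09 and 9.30 in day pools, and the dimmest of them, Hydin, averaged 8.53. All 9 are thus above the median of all genes, 8.18, and of all such brighter genes 73.4% read lower at night. The part of ciliated cells in the Dnajb13 values was not tested. In a pooled tissue, fewer cells of a type and less RNA per cell cannot be told apart.

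Dnajb9, an endoplasmic reticulum J-domain protein that partners Hspa5, had the second smallest p and peaked at the other side of the day. It read 10.95, 11.19, 11.36, 11.28, 11.16 and 10.82 at CT12 to CT32, and 10.88, 11.42, 11.44, 11.44, 11.22 and 11.31 at CT36 to CT56. The low values at CT12, CT32 and CT36 were followed by high ones from CT40 to CT48, while CT56 did not repeat the low of CT32. The amplitude was 0.23 ± 0.06 peaking at CT 21.7 (limma, adjusted p = 0.972).

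Cct6b, a chaperonin subunit known mainly from testis, had an amplitude of 0.14 ± 0.05 peaking at CT 6.9, and Hspa2, an HSP70 protein also abundant in testis, 0.14 ± 0.05 at CT 4.2 (limma, adjusted p = 0.996 each). Cct6b is dim here, at a mean of 6.15. Hspb11, also known as a subunit of intraflagellar transport in cilia, had the largest amplitude, 0.30 ± 0.12 peaking at CT 6.8 (limma, adjusted p = 0.996), and the largest SD, 0.38. It ran from 7.31 through 7.73 to 7.96 in night pools, against 7.57, 7.97 and 8.87 in day pools. The value of 8.87 was CT56, and without that pool the amplitude was 0.15.

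**Figure D2:**
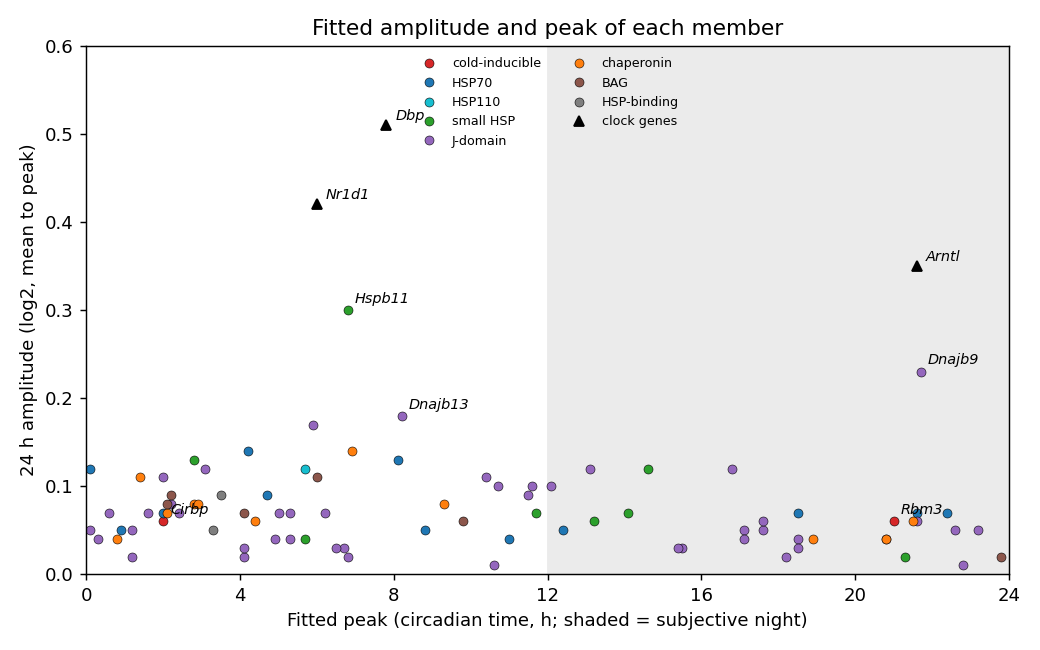
Fitted 24 h amplitude (log2, from mean to peak) against the fitted peak (circadian time, h, subjective night shaded) for the 87 genes, coloured by role, with 3 clock genes as triangles. Most chaperones lie below 0.12 at all hours, Hspb11 is the highest at 0.30, and Dbp, Nr1d1 and Arntl stand above them.

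The genes that heat is known to induce did not pass the 24 h test either. Hspa1a, the heat-inducible HSP70, ran from 8.46 through 8.61 to 8.78 in night pools, against 8.61, 8.71 and 8.95 in day pools, with an amplitude of 0.09 ± 0.05 (limma, adjusted p = 0.996). The probe that Hspa1a shares with Hspa1b ran the other way, with a night minus day difference of 0.11 ± 0.07, against -0.12 ± 0.07 for the Hspa1a probe, so the 2 probes do not settle a direction. Dnajb1, the J-domain partner of the inducible HSP70, had an amplitude of 0.04 ± 0.04, and Dnaja1 0.05 ± 0.06. A second, dimmer Dnaja1 probe gave 0.12 ± 0.08, and the probe shared with Mir207 0.16 ± 0.09 (limma over all probes, adjusted p = 0.999 each). Their night minus day differences were -0.22 ± 0.10 and 0.27 ± 0.12, against -0.05 ± 0.08 for the probe used. The Dnaja1 probes therefore do not settle a direction. Bag3, which is induced with these heat shock genes and feeds substrates to autophagy, had 0.07 ± 0.05. Hspa8 had 0.04 ± 0.04, Hspa5 0.05 ± 0.04, the mitochondrial HSP70 Hspa9 0.07 ± 0.06, Hspd1 0.04 ± 0.07 and Hspe1 0.08 ± 0.08 (SE, 12 pools; limma, adjusted p = 0.996 each). All 12 pool values of Hspa8 lay between 12.86 and 13.06.

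Night was next compared with day directly, the contrast in which a response to body temperature would put heat-inducible genes higher at night and cold-inducible genes lower. The test called 0 of 87 genes, against 0% of all genes, with a smallest adjusted p of 0.497 (limma). At an unadjusted p under 0.05, 7 read lower at night, 8.05% against 5.69% of all genes, and 1 read higher, 1.15% against 4.17%. Single pools moved both counts, and with them the shares of all genes. The lower count was 3 without CT16 (3.35% of all genes), 4 without CT32, CT36 or CT56 (3.33%, 3.06% and 3.55%), 11 without CT28 (8.12%), 12 without CT44 (6.95%) and 17 without CT52, 19.5% against 9.18%. The higher count was 2 without CT12, CT20, CT24, CT28 or CT40 (4.31%, 3.14%, 2.65%, 7.28% and 4.76% of all genes) and 3 without CT52 (11.8%). In 0 of 87 did the 6 night pools and the 6 day pools fail to overlap, against 0.231% of all genes.

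By sign alone 58 of the 87 genes, 66.7%, read lower at night, against 51.5% of all genes, with a median of -0.043 against -0.004. The share differed with the level of the genes. Among the chaperones brighter than the median of all genes 50 of 66, 75.8%, read lower at night, against 73.4% of all genes above that level. Among the dimmer chaperones 8 of 21, 38.1%, did, against 29.6% of all dimmer genes, a split by level drawn after the data were seen. In 4 bins of level, from bright to dim, the chaperones did not lie on 1 side of all genes. Of the 39 chaperones among the brightest 4984 genes 29, 74.4%, read lower, against 80.0% of those genes. In the next bin 21 of 27, 77.8%, did, against 66.9%, in the one after it 4 of 13, 30.8%, against 33.9%, and in the dimmest 4 of 8, against 25.2%.

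**Figure D3:**
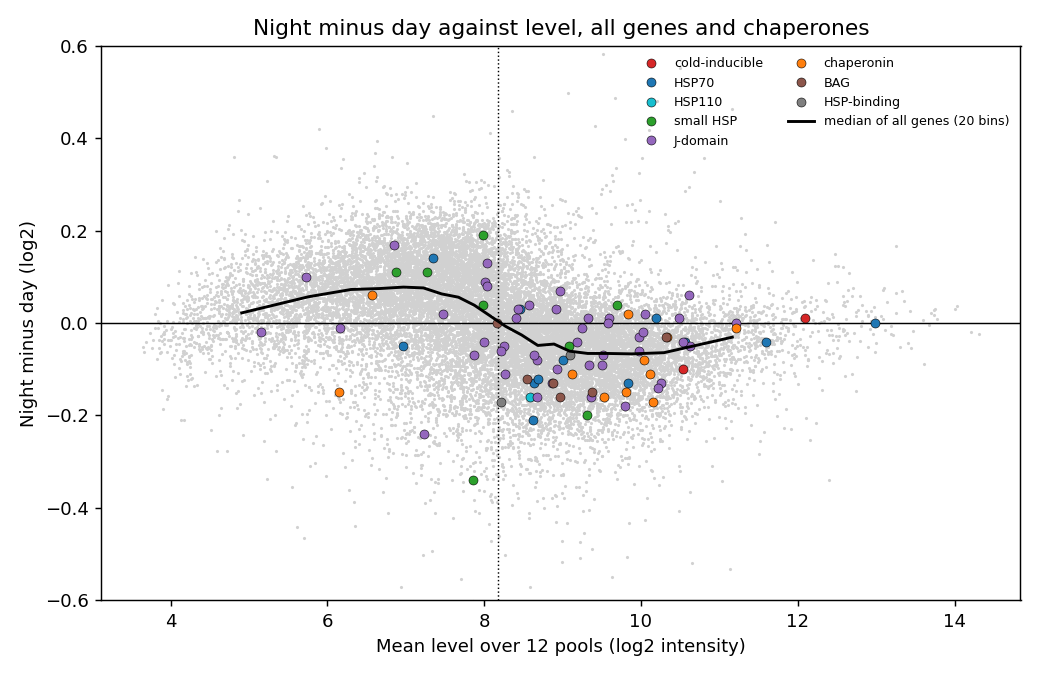
Night minus day (log2) against mean level (log2 intensity) for all genes in grey and the 87 genes coloured by role, with the median of all genes in 20 bins as a line and the median level dotted; 13 genes beyond 0.6 in either direction are not drawn. The line lies above 0 for dim genes and below 0 for bright ones, and 50 of the 66 chaperones right of the dotted line and 8 of the 21 left of it lie below 0.

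Among the HSP70 genes 9 of 12 read lower at night, with a median of -0.047. Of all genes 51.5% did, and 73.4% of those above the median level, where 10 of these 12 lie. Hspa2 had the smallest p of all members in this contrast. It ran from 8.43 through 8.47 to 8.65 in night pools, against 8.57, 8.70 and 8.88 in day pools, and the night pools CT20 and CT44 lay above the lowest day pool, CT48. The means were 8.51 ± 0.10 in night pools and 8.72 ± 0.11 in day pools (SD, n = 6 each), a difference of -0.21 ± 0.06 (limma, adjusted p = 0.497; 95% interval -0.35 to -0.07). Hsph1, the HSP110 protein, ran from 8.35 through 8.48 to 8.60 in night pools, against 8.49, 8.67 and 8.87 in day pools, a difference of -0.16 ± 0.07 (limma, adjusted p = 0.497). Its highest pool was CT32 and its lowest CT16. Hspa8, Hspa5 and Hspa9 differed by 0.00 ± 0.05, -0.04 ± 0.06 and 0.01 ± 0.08, with 95% intervals within 0.2 on either side of 0.

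The small HSPs were the role with more members higher at night, 5 of 8, with a median of 0.035, and 5 of the 8 are dimmer than the median of all genes. Hspb2, a small HSP of muscle, ran from 7.98 through 8.07 to 8.17 in night pools, against 7.69, 7.94 and 8.05 in day pools, a difference of 0.19 ± 0.07 (limma, adjusted p = 0.497). Its low values were CT48 and CT56. All 8 markers of skeletal muscle also read higher at night, with a median of 0.15. Their mean level ran from 7.45 through 7.54 to 7.76 in night pools, against 7.26, 7.42 and 7.65 in day pools, and Myh4, at 6.52, was the dimmest. That mean level is below the median of all genes, 8.18, and of all such dimmer genes 29.6% read lower at night. The part of these markers in the Hspb2 values was not tested. Hspb8, which works with Bag3, went the other way, from 9.10 through 9.17 to 9.45 in night pools, against 9.20, 9.43 and 9.57 in day pools, a difference of -0.20 ± 0.07 (limma, adjusted p = 0.497).

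Of the J-domain genes 28 of 45 read lower at night, against 51.5% of all genes, with a median of -0.032. Above the median level 2 of 4 Dnaja, 7 of 8 Dnajb and 14 of 22 Dnajc genes did. The share of all genes above that level was 73.4%. Dnajb3, a J-domain protein known from testis, ran from 6.90 through 7.12 to 7.30 in night pools, against 7.15, 7.31 and 7.77 in day pools, a difference of -0.24 ± 0.10 (limma, adjusted p = 0.497). Its highest value was again CT56. The chaperonins read lower at night in 9 of 11 genes, with a median of -0.107. Of the 9 bright ones 8 did, against 73.4% of all genes above the median level. Hspe1 differed by -0.15 ± 0.10 and Hspd1 by 0.02 ± 0.09 (limma, adjusted p = 0.536 and 0.936). A second, dimmer probe differed by -0.19 ± 0.11 for Hspe1 and by -0.23 ± 0.14 for Hspd1, and a difference between the 2 genes was not tested. BAG co-chaperones read lower in 5 of 6, with a median of -0.124, and 5 of the 6 are brighter than the median of all genes. Bag3 differed by -0.13 ± 0.06 (limma, adjusted p = 0.497). Hspbap1, a protein that binds a small HSP, differed by -0.17 ± 0.07 (limma, adjusted p = 0.497), with its highest pool at CT32.

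Pool by pool, many chaperones stood on the same side of their own means. CT24, CT32 and CT48 had 70.1%, 74.7% and 69.0% of the 87 genes above their own mean, against 44.4%, 61.7% and 45.5% of all genes. CT16, CT36 and CT52 had 36.8%, 32.2% and 31.0%, against 58.1%, 49.4% and 54.1% of all genes. Among bright genes the shares of all genes lay on the same side as those of the chaperones in each of these 6 pools. The 66 chaperones above the median level had 83.3%, 78.8% and 81.8% above their mean in CT24, CT32 and CT48, against 68.0%, 77.8% and 70.8% of all genes above that level. In CT16, CT36 and CT52 they had 27.3%, 16.7% and 16.7%, against 45.4%, 23.1% and 32.3% of those genes. The single highest value of a gene fell in CT32 for 22 of the 87, 25.3% against 23.2% of all genes, and in CT56 for 18, 20.7% against 15.9%. CT56, CT52 and CT32 were also the arrays with the lowest weights over all genes, 0.332, 0.469 and 0.535, and CT56 had the lowest mean correlation with the other arrays, 0.9749.

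**Figure D4:**
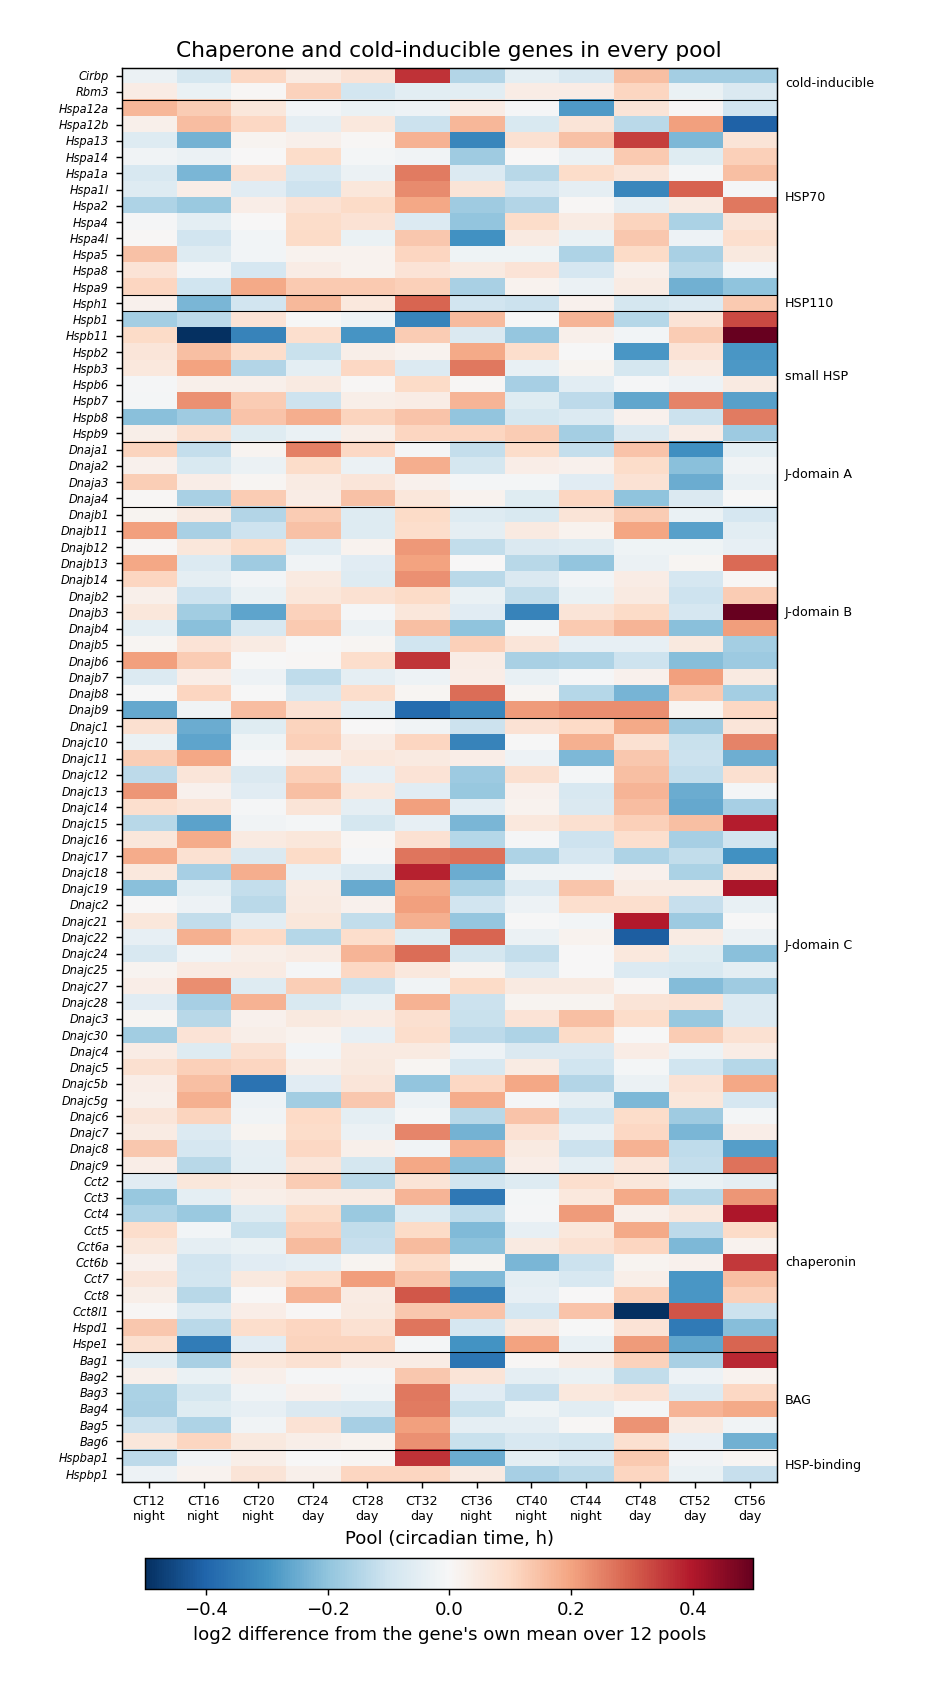
Difference of each gene from its own mean over the 12 pools (log2, colour, from blue for lower to red for higher, saturating at 0.5) for the 87 genes in rows grouped by role and the 12 pools in columns in order of circadian time. CT32 is mostly red; outside the small HSPs CT36 and CT52 are mostly blue, with 22 and 21 of 79 genes above their mean, while 6 of 8 small HSPs are above theirs in both, and Hspb11 at CT56 is the strongest single deviation.

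Rhythms of 12 h in heat shock and endoplasmic reticulum chaperones are known from mouse liver, and were sought here beside the 24 h terms. The 12 h terms called 0 of 87 genes, against 0% of all genes, with a smallest adjusted p of 0.817 (limma). At an unadjusted p under 0.05 there were 3, 3.45% against 5.33% of all genes; the count was 7 without CT20 or CT36 (8.47% and 11.9% of all genes), 9 without CT32 or CT40 (6.26% and 13.4%), 5 without CT44 (3.14%) and 1 without CT48 (5.23%). Hspa1a had the smallest p, with a 12 h amplitude of 0.15 ± 0.04 and peaks at 8.5 h and 12 h after it (limma, adjusted p = 0.817). Its 4 highest pools were CT32 at 8.95, CT56 at 8.84, CT44 at 8.78 and CT20 at 8.76, each a phase of 8 or 20 h. Dnajc8, associated with splicing, had 0.15 ± 0.05 with a peak at 0.6 h, and Hspa2 0.13 ± 0.04 at 7.7 h. Dnajc18 and Dnajc5b, a relative of the synaptic vesicle chaperone, had 0.15 ± 0.06 and 0.14 ± 0.05 (limma, adjusted p = 0.817 for all 4). The probe shared by Hspa1a and Hspa1b gave an unadjusted p of the 12 h terms above 0.05. Hspa5 had a 12 h amplitude of 0.07 ± 0.04 and Dnajb9 0.07 ± 0.06.

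The second cycle was set against the first with phase as a factor, to see whether levels drifted in constant darkness. The test called 0 of 87 genes, against 0% of all genes, with a smallest adjusted p of 0.304 (limma). At an unadjusted p under 0.05, 7 read lower in the second cycle, 8.05% against 8.94% of all genes, and 5 read higher, 5.75% against 4.22%. Leaving out either pool of a phase gives the same counts by design, since with phase as a factor the pool left over adds nothing to the difference. The lower count was 2 without CT28 or CT52 (6.42% of all genes), 3 without CT20 or CT44 (5.03%) and 4 without CT32 or CT56 (4.49%). The higher count was 2 without CT16 or CT40 (3.48%), 1 without CT20 or CT44 (2.92%), 1 without CT28 or CT52 (3.57%) and 0 without CT32 or CT56 (2.61%). By sign 64 of 87, 73.6%, read lower in the second cycle, against 61.7% of all genes. Of the 66 chaperones above the median level 48 did, 72.7% against 68.7% of all genes above it, and of the 21 dimmer ones 16 did, 76.2% against 54.6%.

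Dnajb6 had the smallest p between cycles. It ran from 7.26 through 7.32 to 7.51 in the second cycle, against 7.47, 7.58 and 7.83 in the first, and was lower in the second in all 6 pairs of the same phase. The cycle means were 7.34 and 7.60, a difference of -0.26 ± 0.06 (limma, adjusted p = 0.304; 95% interval -0.40 to -0.12). The 3 probes that Dnajb6 shares with a predicted gene differed between cycles by 0.01, 0.10 and 0.16 and so do not repeat it. Hspa9 differed by -0.19 ± 0.07 and Dnajc16, a J-domain protein of the endoplasmic reticulum, by -0.14 ± 0.05. Higher in the second cycle were Cct4, a subunit of the cytosolic chaperonin, by 0.19 ± 0.07 and Dnajc15, a J-domain protein of mitochondria, by 0.19 ± 0.07 (limma, adjusted p from 0.315 to 0.318 for these 4). Cirbp averaged 10.45 in the second cycle and 10.61 in the first, a difference of -0.16 ± 0.08 (limma, adjusted p = 0.411), and Rbm3 12.10 and 12.09. All 5 markers of immature sensory neurons read lower in the second cycle, their mean level running from 9.62 through 9.70 to 9.84 against 9.86, 9.93 and 9.99 in the first. Of the markers of mature neurons 7 of 8 did, at 11.94, 12.07 and 12.13 against 12.08, 12.17 and 12.27. All of these markers lie above the median level, where 68.7% of all genes read lower in the second cycle. Their part in these differences was not tested, and a batch that ran with the cycle cannot be told apart from it. A term for a night effect that differs between cycles called 0 of the 87 (0 at an unadjusted p under 0.05), and its largest departure by p was Hspd1. The share of all genes was not taken for this term. These counts therefore do not show that the night effect was the same in both cycles.

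Chosen genes were compared pool by pool over 8 pairs. Some pairs work in 1 complex or under 1 element, and others, such as Cirbp with Hspa8, are not such partners. Hspa5 and Hsp90b1, the HSP70 and HSP90 proteins of the endoplasmic reticulum, varied together, with r = 0.76 (permutation test, two-sided, adjusted p = 0.0338) and Spearman's rho = 0.71 (adjusted p = 0.086) over 12 pools. Without CT52 and CT44, the pools farthest from the median of Hspa5, r was 0.66 (permutation test, adjusted p = 0.187), and the pair no longer passed the threshold over the remaining 10 pools. Within the second cycle r was 0.54 and within the first 0.95 (exact permutation test, adjusted p = 0.733 and 0.0333). Of all genes, 5% correlated with Hspa5 above 0.67. Cct2 and Cct5, subunits of 1 ring, had r = 0.60 and rho = 0.66 (permutation test, adjusted p = 0.164 and 0.086), and r = 0.48 without CT28 and CT24.

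Hspd1 and Hspe1, with their shared heat shock element, had r = 0.38 and rho = 0.21 (permutation test, adjusted p = 0.389 and 0.517), and r = 0.63 without CT52 and CT56. These values rest on the brightest probe of each gene. The second, dimmer probe correlated with it at 0.71 for Hspd1 and 0.63 for Hspe1. The correlation between the dimmer probes of the 2 genes was not taken. Cirbp and Rbm3 had r = 0.19 and rho = 0.31 over all pools (permutation test, adjusted p = 0.569 and 0.512), with 0.93 in the second cycle and -0.28 in the first (exact permutation test, adjusted p = 0.0444 and 0.583). Cirbp and Hspa8 had r = 0.36 and rho = 0.41 (permutation test, adjusted p = 0.389 and 0.474). Hsph1 had r = 0.30 with Hspa8 and 0.33 with Dnajb1, and Hspa5 had -0.37 with Dnajb9 (permutation test, adjusted p = 0.389 each). Across the 12 pools the genes most like Cirbp were Nmt1, Camk1, Copg1, Lmo2 and Rcc2, with r from 0.959 to 0.945, and those most like Rbm3 were Get1, 4931406C07Rik, Sdc2, Vezf1 and Snap29, with r from 0.912 to 0.877, given as a description of shared variation between arrays.

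The lists around the chaperones gave no calls in any of the 4 tests either. Of 13 measured HSP90 genes and partners 11 read lower at night, with a median of -0.066. The share was 51.5% over all genes and 73.4% over all genes above the median level. The smallest p in the 24 h fit was that of Stip1, which links HSP70 to HSP90, with an amplitude of 0.10 ± 0.06. Of 19 genes of the unfolded protein response 14 read lower at night, with a median of -0.048. All 19 lie above the median level, where 73.4% of all genes did, and the dimmest, Eif2ak3, averaged 8.74. Edem1, of the disposal of misfolded protein, had the smallest p, with 0.16 ± 0.05 at a peak of CT 3.2. Among 5 heat shock factors and other heat-inducible genes Cryab, a small heat shock protein under another symbol, had 0.14 ± 0.04 at CT 22.8 (limma, adjusted p = 0.996 for Stip1, Edem1 and Cryab). Of 8 immediate early genes Dusp1 had 0.31 ± 0.09 at CT 17.5 (limma, adjusted p = 0.996).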

How the data were processed

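Each pool has 1 value per probe. The tool affy is named, per the submitters' processing notes, and its background correction and normalization are not stated there. The authors' deposited values were read as log2 intensity from their range, and used as they stand. Of 34760 probes, 22961 are listed in the platform annotation, 21640 with 1 symbol and 1321 with several. Each gene took the probe with the highest mean.

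Fits used limma 3.58.1 in R 4.3.3 and version 1.17.8 of data.table: a cosine and sine of 24 h over 12 pools with 9 residual degrees of freedom, night minus day, 12 h terms beside the 24 h terms, and second minus first cycle, each adjusted by Benjamini-Hochberg over 19937 genes, with a threshold of 0.05. The fits were also run on simulated data, with noise drawn separately for each gene and no variation shared between genes. The share recovered is not reported here, so that run does not bear on the absent calls. An upper limit of an amplitude is the amplitude plus the 95% t quantile times its standard error. Correlations used 100000 permutations, and all orders within a cycle. Each time point is 1 pool, so p-values measure the spread between pools around a curve or group, and precision is limited by the number of arrays. Column medians lay between 7.81 and 7.92. The members, lists and tests were chosen with earlier results of these data known.

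Named were Cirbp, Rbm3 and 12 core chaperone genes, the 5 members with the smallest p in each fit, the 3 with the largest SD, the smallest p of each other list, and the 5 genes most like Cirbp and Rbm3. Alternatives were quantile normalization, median centring, filters below the 25th and 50th percentile, array weights, a trended robust prior, the mean of all probes, periods of 22 and 26 h, a linear term of time, a cycle block, phase as a factor, other contrasts and leaving out each pool. After seeing the data, the fit of each probe, the split by level, the interaction of night with cycle, and leaving out CT52 or CT32 together with CT56 were added. Python 3.11.15, numpy 2.4.6, pandas 2.3.3, scipy 1.17.1 and matplotlib 3.10.9 were used. Promoter sequences are those of RefSeq, GRCm38.p6.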

Additional observations from a re-analysis of the deposited data

Results flagged for a closer look

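Among the 28 named members the 6 night pools and the 6 day pools were each screened for a single pool far from the rest, by the gap to its nearest neighbour as a share of the group's range. Of 56 groups 4 were marked. Chance would mark about 2.8 among genes chosen without regard to these values. The named members were chosen partly by their p or SD in the same pools, so the count cannot be set against that figure. CT56 was the high pool in 3 of them. Hspb11 read 8.87 at CT56, against 7.57 to 7.99 in the other day pools (gap share 0.675), Dnajb3 7.77 against 7.15 to 7.35 (0.684), and Cct6b 6.50 against 6.10 to 6.24 (0.655). CT52 was the low pool for Hspa5, at 11.43 against 11.61 to 11.70 (0.647). CT56 and CT52 have the lowest array weights, 0.332 and 0.469, and their part in these values was not tested.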

How the results depend on the processing

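In the alternative fits run no member passed an adjusted p of 0.05 in any of the 4 tests. With leaving out each pool the count of members lower at night ran from 52 to 65, and of members lower in the second cycle from 55 to 71. For the cycles, leaving out either pool of a phase is the same fit. Over all alternatives the ranges were 44 (dusk against dawn, phases 8, 12 and 16 h against 20, 0 and 4 h) to 69 (median centring) and 48 (of the genes left above the 50th percentile) to 71. The share of all genes moved with the setting too. For night the members' share stayed above it, but only at 75.8% against 73.4% among genes above the 50th percentile. For the cycles it was 73.6% against 61.7% in the main fit. It fell below that of all genes with array weights and without CT12 or CT36, where the count was 55. The excess lower in the second cycle thus depends on the setting. The amplitude of Cirbp ran from 0.04 to 0.14 and that of Rbm3 from 0.05 to 0.08. The near-zero night minus day value of Rbm3 changed sign to -0.05 with array weights and with dusk against dawn, -0.01 with the mean of all probes and with median centring, and -0.02 without CT32 and CT56 or CT52 and CT56 together; leaving out each pool gave -0.01 to 0.03. Dnajb3 reached 0.03 with dusk against dawn. The 24 h amplitude of Hspb11 was as low as 0.13 without CT32 and CT56. Counts at an unadjusted p under 0.05 in the 24 h fit were 12 with phase as a factor, 13.8% against 16.9% of all genes, and 2 at 22 h, 2.3% against 2.92%. With array weights they were 18 for the 12 h terms, 20.7% against 28.4%, and 16 lower and 5 higher at night, 18.4% against 9.42% and 5.7% against 14.5%. With the robust prior 13 were lower in the second cycle, 14.9% against 10.1%. In the pairs, r fell to 0.54 (second cycle) and 0.66 (2 pools left out) for Hspa5 with Hsp90b1, and reached 0.93 for Cirbp with Rbm3 in the second cycle; it changed sign to -0.28 for that pair in the first cycle, and in the second cycle to -0.33 for Hsph1 with Hspa8, -0.14 for Hsph1 with Dnajb1 and 0.10 for Hspa5 with Dnajb9. The causes were not tested.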

Other observations

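Probes at the Hspa8 locus differed. The 2 probes that Hspa8 shares with small nucleolar RNA genes of its introns read higher in the second cycle by 0.83 ± 0.24 and 0.37 ± 0.15, while the Hspa8 probe used here differed by -0.03 ± 0.05. Dnajc13, a J-domain protein of endosomes, was read by 15 probes whose mean levels ran from 6.40 to 10.03.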
